A study of Mus musculus with 2 samples.

Results

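The genes described here are the matrix metalloproteinases (MMPs), their tissue inhibitors (TIMPs), the ADAM and ADAMTS proteases and the core of the plasminogen system, in the mouse line 14837, grown from pancreatic ductal adenocarcinoma (PDAC) of the C57BL/6 strain. They were selected by gene symbol, as every row named Mmp, Timp, Adam or Adamts followed by a number, with Plau, Plaur, Plat, Serpinb2 and Serpine2 added. The rule itself uses no measured value, although it was set with earlier results of these data known. This gave 78 genes of 21983 gene entries, namely 23 MMPs, 4 TIMPs, 27 ADAMs, 19 ADAMTS genes and 5 plasminogen genes. The labels describe 2 libraries of these cells, each made after 48 h in conditioned medium, which is medium that other cells have grown in. The medium came either from cancer-associated fibroblasts (CAFs) or from 14837 cells themselves, in a basal DMEM with serum and penicillin that both groups shared. The deposited table names a column that matches the CAF-medium library and another that matches neither library, so levels within the CAF-medium library are given and the 2 media were not compared.

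MMPs and ADAMTS proteases are zinc enzymes that cut collagens, proteoglycans and other matrix proteins, and TIMPs bind their active site and block them. ADAMs sit in the cell membrane and release the outer part of other membrane proteins, a process called shedding that frees growth factors of the EGF family and switches on Notch. In the plasminogen system the activators Plau (urokinase, uPA) and Plat (tissue-type, tPA) turn plasminogen into plasmin, Plaur holds urokinase on the cell surface, and serpins inhibit the activators. In pancreatic tumours these proteases are known from both tumour cells and the dense stroma.

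The CAF-medium library held 21269197 counts, of which the 78 genes took 0.188%. Values are CPM, counts scaled to a library total of 1000000, and come with exact Poisson 95% intervals, which cover counting error only, since there was 1 library and no replicate. Levels of different genes are compared as CPM per kilobase of all annotated exons, because longer genes collect more counts. The median over the 11569 entries with at least 10 counts, called the median gene below, was 37.9 CPM, and 8.14 CPM per kilobase on the length scale. For a count of 0 the bound used in place of that interval is one-sided, at 3 counts or 0.141 CPM. A listed 0 is not read as absence, because Atp5a1, Uqcrc1 and Jund, genes that most cells use, were also listed at 0. Of 240 ribosomal protein, proteasome, complex I, RNA polymerase II and mitochondrial ribosomal protein genes, 7 were listed at 0. Among them were Psma8 and Psmb8, which not every cell uses. In RNA from a whole culture, fewer cells making a transcript and less transcript per cell cannot be told apart.

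A small number of the 78 genes carried nearly all of the signal. Of the 78, 25 had at least 10 counts (32.1%), against 52.6% of all gene entries. At least 100 counts were found for 16, against 44.5% of all entries. In CPM, 10 exceeded the median gene (12.8%), against 26.3% of all entries, and these 10 held 96.1% of the counts of the 78. Those 10 were picked by count, and the matching share over all entries was not computed. Per kilobase, 9 exceeded the median gene, since Plat fell below. Another 11 genes had 1 to 9 counts, and 42 were listed at 0 (36.6% of all entries were). The share with at least 10 counts was 34.8% among MMPs, 33.3% among ADAMs and 15.8% among ADAMTS genes, while 2 of 4 TIMPs and 3 of 5 plasminogen genes reached it. The median of the 25 genes was 11.99 CPM.

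**Figure D1:**
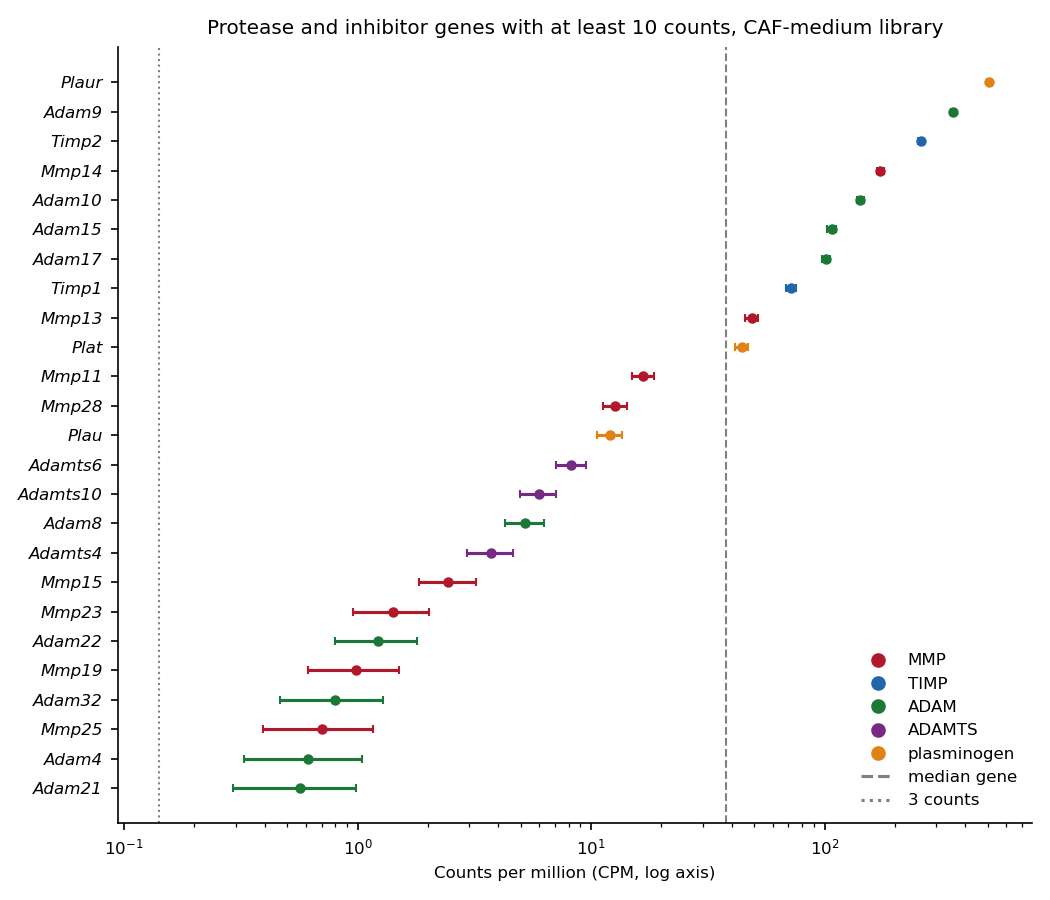
Level of each of the 25 genes with at least 10 counts in the CAF-medium library, in CPM on a log axis, with exact Poisson 95% intervals (counting error only). Points are coloured by family, the dashed line is the median gene at 37.9 CPM and the dotted line is 3 counts, and Plaur stands highest at 504 CPM.

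**Figure D2:**
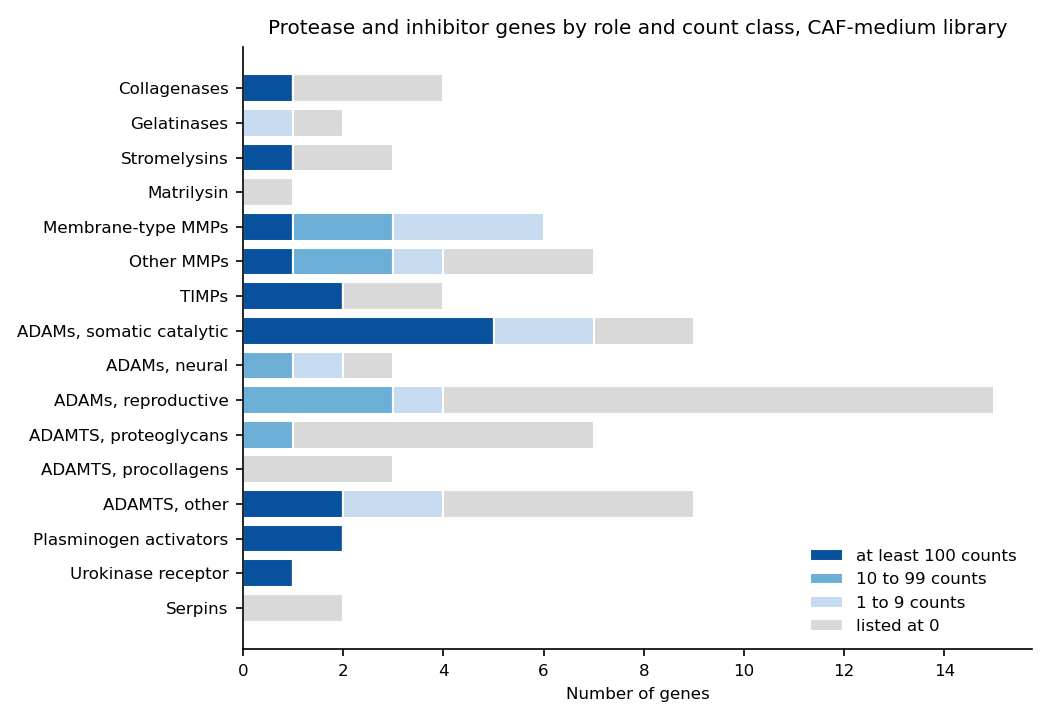
Number of genes in each role, split by count class in the CAF-medium library. The reproductive ADAMs form the longest bar, with 11 of 15 listed at 0, and the somatic catalytic ADAMs have the most genes with at least 100 counts, at 5 of 9.

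The plasminogen system was uneven, with its receptor far above both activators. Plaur, which anchors urokinase at the cell surface (mm10 chromosome 7, plus strand, 24462484 to 24475968), had 10711 counts, which is 504 CPM (494 to 513), and ranked 241st of all entries. Per kilobase it stood at 192 CPM (189 to 196), the highest of the 78 genes. Plau, the gene of its ligand urokinase, had 255 counts, or 11.99 CPM (10.6 to 13.6), which was below the median gene. The ratio of Plau to Plaur was 0.0238 in counts (exact 95% interval 0.0209 to 0.0270) and 0.0263 per kilobase. Receptor and ligand therefore lay at opposite sides of the median gene on both scales.

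Plat, the tissue-type activator (chromosome 8, plus strand, 22757727 to 22782844), had 941 counts, or 44.2 CPM (41.5 to 47.2). Plau had 0.271 times the counts of Plat (0.235 to 0.312), with the ratio at 0.715 per kilobase of all exons and 0.468 per kilobase of the longest transcript. Plat was thus the higher activator on each scale, by a margin that depends on length. The serpins Serpinb2 (plasminogen activator inhibitor type 2) and Serpine2 (protease nexin) were listed at 0.

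Among partners of the system, Anxa2 and S100a10 were far above the median gene and Plg, the gene of plasminogen itself, was listed at 0. Of 16 partner genes, 11 had at least 10 counts (68.8%, against 52.6% of all entries). In CPM, 7 exceeded the median gene (43.8%, against 26.3%). Anxa2 and S100a10, whose proteins form a complex that binds plasminogen and tPA, stood at 284 and 269 CPM per kilobase, above Plaur. The plasminogen receptor Plgrkt stood at 8.16 CPM per kilobase, next to the median gene, and at 31.0 CPM, below it. F3, tissue factor, which starts clotting, stood at 103 CPM per kilobase and Serpinb6a, an intracellular serpin, at 53.2, although exons of other genes overlap 29.3% of its exonic bases. Plg is made mainly in liver. Also listed at 0 were Hgf, a growth factor activated by proteases of this kind, the surface serine proteases St14 and Hpn, and the inhibitor Spint1, while the related Spint2 stood at 30.4 CPM per kilobase. Lrp1, which takes up protease and inhibitor complexes, stood at 0.963 CPM per kilobase, and the related receptor Vldlr at 24.3.

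**Figure D3:**
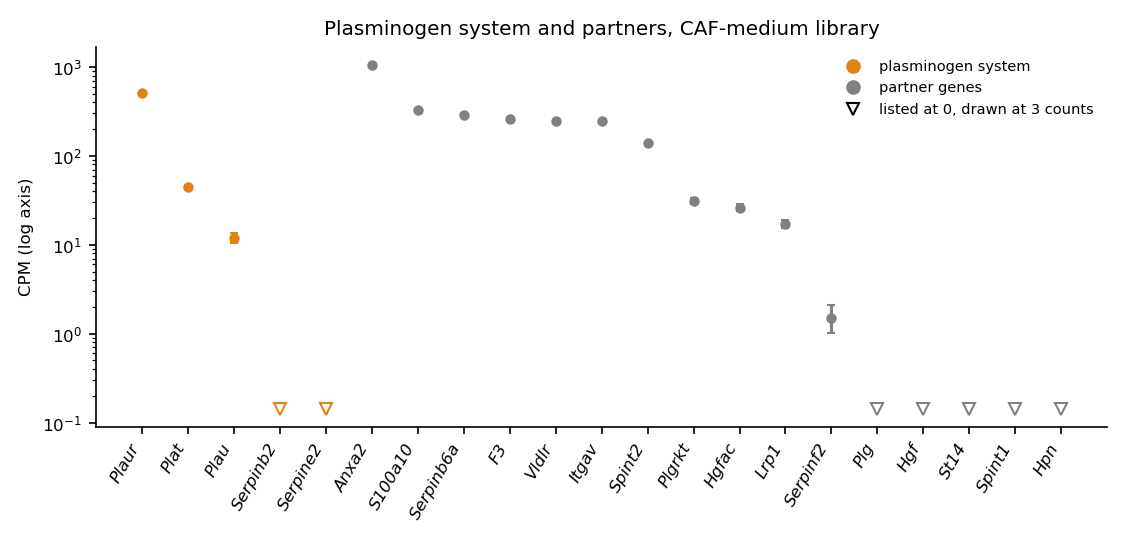
Level in CPM, on a log axis, of the 5 plasminogen genes (orange) and the 16 partner genes (grey) in the CAF-medium library, with exact Poisson 95% intervals. Open triangles mark genes listed at 0, drawn at 3 counts, among them Serpinb2, Serpine2 and Plg.

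Among the inhibitors of metalloproteinases, Timp1 and Timp2 were well above the median gene and Timp3 and Timp4 were listed at 0. Timp2, which blocks most MMPs and also takes part in activating pro-MMP2 on the cell surface (chromosome 11, 118301069 to 118355740, minus strand), had 5477 counts, or 258 CPM (251 to 264). Timp1, an inhibitor that many cells secrete in response to cytokines (chromosome X, plus strand, 20870166 to 20874735), had 1530 counts, or 71.9 CPM (68.4 to 75.6). Timp2 had the larger count and Timp1 the larger level for its length. The ratio of Timp1 to Timp2 was 0.279 in counts (0.264 to 0.296), 1.23 per kilobase of all exons and 1.17 per kilobase of the longest transcript, since the exons of Timp1 span 888 bases and those of Timp2 3896.

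Timp3, which stays bound to the matrix and also inhibits ADAM17, and Timp4 had no counts. The annotation places Timp1, Timp3 and Timp4 inside the synapsin genes Syn1, Syn3 and Syn2, each on the opposite strand of its host. The hosts had 74, 0 and 34 counts, and no exon of Syn1 overlaps Timp1. Exons of Syn3 overlap 21.3% of the exonic bases of Timp3. Summed over each family and per kilobase, TIMPs stood at 147 CPM per kilobase and MMPs at 58.1, or at 151 and 84.7 with the longest transcript as length. These sums are transcripts and say nothing of the proteins' balance.

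Among MMPs, Mmp14 was the highest, and the secreted gelatinases were at or near 0. Mmp14, the membrane-type collagenase MT1-MMP that activates pro-MMP2 (chromosome 14, plus strand, 54431612 to 54445364), had 3683 counts, or 173 CPM (168 to 179), and held 67.4% of all MMP counts. It stood at 29.1 CPM per kilobase of all exons (28.1 to 30.0) and at 53.5 with the longest transcript as length. The ratio of Mmp14 to its inhibitor Timp2 was 0.672 in counts (0.645 to 0.701), 0.440 per kilobase of all exons and 0.770 per kilobase of the longest transcript. Timp2 was therefore the higher of the pair on all 3 scales. The other gene of that activation complex, Mmp2, was listed at 0.

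The remaining membrane-type genes were far lower. Mmp15 had 52 counts, so the ratio of Mmp14 to it was 70.8 (53.9 to 95.02), and 64.1 on the length scale. Mmp25, known from leukocytes, had 15 counts, Mmp17 had 2, and Mmp16 and Mmp24 had 1 each. The gelatinase Mmp9, known mainly from neutrophils and macrophages in tumours, had 1 count. No ratio of Mmp2 to Mmp9 was formed from these counts.

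Mmp13, the main collagenase of the mouse (chromosome 9, plus strand, 7272514 to 7283331), was the other MMP above the median gene, with 1036 counts, or 48.7 CPM (45.8 to 51.8). Per kilobase it stood at 18.2 CPM (17.1 to 19.4). Mmp11, stromelysin-3, an enzyme activated inside the cell by furin-type proteases (chromosome 10, 75923222 to 75936496, minus strand), had 355 counts, or 16.7 CPM (15.0 to 18.5), and 6.01 CPM per kilobase. Exons of Chchd10, which had 389 counts, overlap 5.58% of its exonic bases. Mmp28, epilysin (chromosome 11, 83440768 to 83463071, minus strand), had 270 counts, or 12.7 CPM (11.2 to 14.3), and exons of 1700020L24Rik, at 27 counts, overlap 12.03% of its exonic bases. Mmp23 had 30 counts and Mmp19 21, with 28.3% of the exonic bases of Mmp19 shared with exons of other genes. Mmp21 had 1 count.

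Mmp13 belongs to a cluster of 10 Mmp genes on chromosome 9 (7272514 to 7699585, a span of 427 kb), and the other 9 were listed at 0. These are Mmp12, Mmp1b, Mmp3, Mmp1a, Mmp10, Mmp8, Mmp27, Mmp20 and Mmp7, which cover macrophage elastase, collagenases, stromelysins, enamelysin and matrilysin. The annotation lists Mmp1a not as protein-coding but as a polymorphic pseudogene. The genes on both flanks had counts, with 2011 for Dcun1d5 on the side of Mmp13 and 1107 for Tmem123 beyond Mmp7. Further out on the first side, Dync2h1 had 725. On the other, Birc2 had 771, Birc3 354 and Yap1 5957, and Cfap300 and Cep126, farther still, had 10 and 2.

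**Figure D4:**
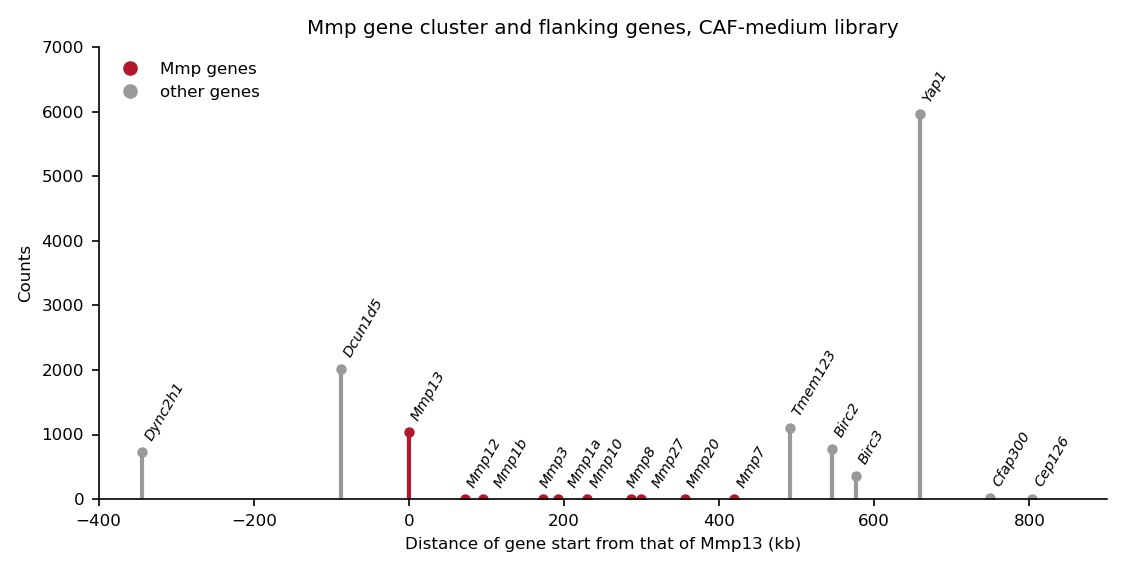
Counts in the CAF-medium library for the Mmp gene cluster (red) and flanking genes (grey), placed by the distance of each gene's lowest coordinate from that of Mmp13 in kilobases. Mmp13 has 1036 counts, the other 9 Mmp genes are on the axis at 0, and genes on both flanks have counts.

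The bases before the start of several of these genes are shown because the genes differ in counts and yet share a motif. AP-1 is the JUN and FOS family of transcription factors, and ETS proteins are another family. Both are known regulators of collagenase and urokinase receptor genes. The AP-1 motif was searched as TGANTCA, which reads the same on both strands, and the ETS motif as AGGAAG or its reverse complement CTTCCT, in the 250 bases before each RefSeq gene start on build GRCm38.p6. Matches to either are in capitals in these stretches of 120 bases, each read 5′ to 3′ and ending at the base before the start of its gene.

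Mmp13, chr9:7272394-7272513, plus strand: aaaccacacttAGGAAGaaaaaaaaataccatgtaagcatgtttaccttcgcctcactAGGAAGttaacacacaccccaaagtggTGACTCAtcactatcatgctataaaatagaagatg

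Mmp3, chr9:7445702-7445821, plus strand: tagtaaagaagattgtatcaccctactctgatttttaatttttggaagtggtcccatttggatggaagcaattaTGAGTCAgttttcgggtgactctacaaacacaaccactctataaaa

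Mmp1a, chr9:7464021-7464140, plus strand: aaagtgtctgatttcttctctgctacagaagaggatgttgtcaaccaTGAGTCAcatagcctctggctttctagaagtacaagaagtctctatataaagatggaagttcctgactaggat

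Mmp10, chr9:7502222-7502341, plus strand: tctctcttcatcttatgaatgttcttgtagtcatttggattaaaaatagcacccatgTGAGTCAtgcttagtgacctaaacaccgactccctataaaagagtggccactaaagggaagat

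Mmp7, chr9:7691970-7692089, plus strand: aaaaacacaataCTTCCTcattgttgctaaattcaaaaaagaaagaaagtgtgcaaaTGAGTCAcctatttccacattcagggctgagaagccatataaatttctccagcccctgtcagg

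Plaur, chr7:24462363-24462482, plus strand: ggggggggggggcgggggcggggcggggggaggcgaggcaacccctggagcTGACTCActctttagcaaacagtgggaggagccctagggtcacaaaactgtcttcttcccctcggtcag

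Mmp13, with 1036 counts, carries TGACTCA from 35 to 29 bases before its start, with ETS matches from 62 to 57 and from 109 to 104. Mmp3, Mmp1a, Mmp10 and Mmp7, all at 0, carry TGAGTCA, from 46 to 40, 73 to 67, 63 to 57 and 63 to 57 bases before their starts. TGAGTCA is the reverse complement of TGACTCA, so both are the same site read on opposite strands. Adam29, also at 0, carries TGACTCA. For Mmp7, which has 2 windows, the one that opens at the first annotated base is shown. Plaur, the highest of the 78 genes, carries TGACTCA from 69 to 63 bases before its start. ETS matches were not particular to Mmp13. Mmp7 has one from 108 to 103 bases before its start. Beyond the stretches shown, Mmp3 has one from 183 to 178 and Plaur from 130 to 125, while Mmp1a and Mmp10 have none. Of the 10 cluster genes, 6 had an ETS match. In all, 8 of the 10 cluster genes had an AP-1 match, the exceptions being Mmp8 and Mmp27. For Mmp12 the match was only in a window inside the annotated gene (7347124 to 7347373), and not in the window at its lowest coordinate. The match of Mmp20 was TGAATCA. Of all 27025 genes with a window, 7.82% had a match to TGANTCA.

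Windows were found for 47 of the 78 genes, 53 windows in all. An AP-1 match was present in 14 of the 47, namely in 2 of the 16 with at least 10 counts and in 12 of the 31 below that. The 14 include the 8 genes of the chromosome 9 cluster, and outside that cluster 6 of 37 had a match (16.2%). Of those 6, Plaur had at least 10 counts, and Adam19, Adam20, Adam25, Adam29 and Serpinb2 had fewer. The split by counts was therefore not confined to that cluster. Over the whole table an AP-1 match was present in 5.56% of genes with at least 10 counts and in 9.46% of those listed at 0. An ETS match was present in 7 of the 16 and 13 of the 31, and in 32.3% of all genes. The 2 motifs overlapped in none of these windows. A match is a string of letters and not a measured binding site.

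Genes of the AP-1 and ETS families were mostly counted, at levels that ranged widely. Of 7 AP-1 genes, 6 had at least 10 counts and 4 exceeded the median gene in CPM, and of 6 ETS genes 5 did both, against 52.6% and 26.3% of all entries. Among AP-1 genes, Junb stood at 316 CPM per kilobase, Fosl2 at 36.6 and Jun at 29.6, and Jund was listed at 0. Fosl1 stood at 238 CPM per kilobase, but exons of another gene overlap 57.2% of its exonic bases. Fos, at 11.4 CPM per kilobase, and Fosb, at 5.92, were lower. Among ETS genes, Etv4 stood at 26.4 CPM per kilobase and Ets2 at 25.9, Ets1 at 13.4, and Etv1 was listed at 0.

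Among ADAMs, the broadly expressed sheddases were high and the genes known from testis were at or near 0. Adam9, a widely expressed ADAM (chromosome 8, 24949611 to 25016927, minus strand), had 7559 counts, or 355 CPM (347 to 364), which was 49.7% of all ADAM counts. At 86.4 CPM per kilobase (84.4 to 88.3) it was second to Plaur among the 78. Adam10, a sheddase of Notch receptors and cadherins (chromosome 9, plus strand, 70678997 to 70780229), had 3023 counts, or 142 CPM (137 to 147). Adam17, also called TACE, which releases TNF and EGF family ligands (chromosome 12, 21323509 to 21373632, minus strand), had 2153 counts, or 101 CPM (97.0 to 106). Both main sheddases were therefore above the median gene, with Adam10 the higher of the pair.

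Adam10 had 1.40 times the counts of Adam17 (1.33 to 1.48), 2.04 times per kilobase of all exons and 1.37 times per kilobase of the longest transcript. Exons of Iah1, which had 2269 counts, overlap 4.35% of the exonic bases of Adam17. Adam15, an ADAM that can bind integrins (chromosome 3, 89338542 to 89349996, minus strand), had 2281 counts, or 107 CPM (103 to 112), with 20.6% of its exonic bases in exons of another gene. Its count and that of Adam17 did not differ beyond counting error (ratio 1.06, 0.998 to 1.12). Per kilobase of all exons Adam15 was the higher, beyond counting error (ratio 1.23, 1.16 to 1.31), and the ratio was 1.21 on the longest transcript. Adam8, known mainly from leukocytes and from invasive tumours, had 111 counts, or 5.22 CPM (4.29 to 6.28).

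Of the other catalytic somatic ADAMs, Adam19 and Adam33 had 2 counts each and Adam12 and Adam28 were listed at 0. The neural ADAMs lack protease activity. Among them Adam22 had 26 counts, Adam11 had 2 and Adam23 was listed at 0. Of 15 ADAMs known mainly from testis and epididymis, where several act in sperm function, 11 were listed at 0 (36.6% of all entries were). All 15 together had 44 counts. Adam32, with 17, begins 806 bases beyond the end of Adam9 on the same strand. Adam4 had 13, with 13.1% of its transcript windows also found in other genes, and Adam21 had 12.

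Transcripts were also counted for genes whose proteins bring the sheddases to the cell surface or activate their precursors. Of 16 genes that control MMPs and ADAMs, 11 had at least 10 counts (68.8%, against 52.6% of all entries). In CPM, 6 exceeded the median gene (37.5%, against 26.3%). Rhbdf2 and Rhbdf1, the iRhoms that carry ADAM17 to the surface, stood at 25.6 and 16.02 CPM per kilobase. The tetraspanins that escort ADAM10 were lower, with Tspan14 at 8.71, Tspan5 at 5.66, Tspan17 at 4.09, Tspan15 at 3.98 and Tspan33 at 0.525 CPM per kilobase. Tspan10 had 1 count. Furin, which cuts the pro-domain from many ADAMs and membrane-type MMPs, stood at 32.9 CPM per kilobase. Bsg, also called EMMPRIN and known as an inducer of MMPs in fibroblasts, stood at 231 CPM per kilobase. Reck, a membrane-anchored inhibitor of several MMPs, had 2 counts, and the inhibitors A2m and Tfpi2 were listed at 0.

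ADAMTS genes had the lowest summed count of the 5 families and the lowest share with at least 10 counts, with no gene above the median gene in CPM. The family summed to 386 counts, or 18.1 CPM, and 14 of 19 were listed at 0 (36.6% of all entries were). Adamts6 had 175 counts, or 8.23 CPM (7.05 to 9.54), and Adamts10, which takes part in microfibril assembly, had 127, or 5.97 CPM (4.98 to 7.10). Of the 7 genes whose enzymes cut proteoglycans such as aggrecan and versican, Adamts4 had 79 counts, or 3.71 CPM (2.94 to 4.63), and the other 6, Adamts1 and Adamts5 among them, were listed at 0. All 3 genes of procollagen processing, Adamts2, Adamts3 and Adamts14, were listed at 0. Adamts12 had 4 counts and Adamts13, which cuts von Willebrand factor, 1.

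The order of the genes depended on length. Per kilobase of all exons, Plaur led, followed by Adam9, Timp1 at 81.0 and Timp2 at 66.1 CPM per kilobase. Mmp14 and Adam10 followed at 29.1 and 28.9, and that pair did not differ beyond counting error (ratio 1.004, 0.957 to 1.05). Per kilobase of the longest transcript they stood at 53.5 and 30.9, with Mmp14 then 1.73 times as high. Mmp13 and Adam15, at 18.2 and 17.5, did not either (ratio 1.04, 0.969 to 1.12), and on the longest transcript their order turned, at 18.2 and 27.4 (ratio 0.665). Adam17 stood at 14.1, Plat at 7.09, Mmp11 at 6.01, Plau at 5.07 and Mmp28 at 3.28, and, among the 16 genes with at least 100 counts, Adam8, Adamts6 and Adamts10 were lowest at 1.13, 1.06 and 0.723. Of 24 neighbouring pairs among the 25 genes, 12 lay within counting error of each other per kilobase, against 9 in counts. With the longest transcript as length, Mmp14 rose most among the 12 genes with the highest counts, by 1.84 times.

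**Figure D5:**
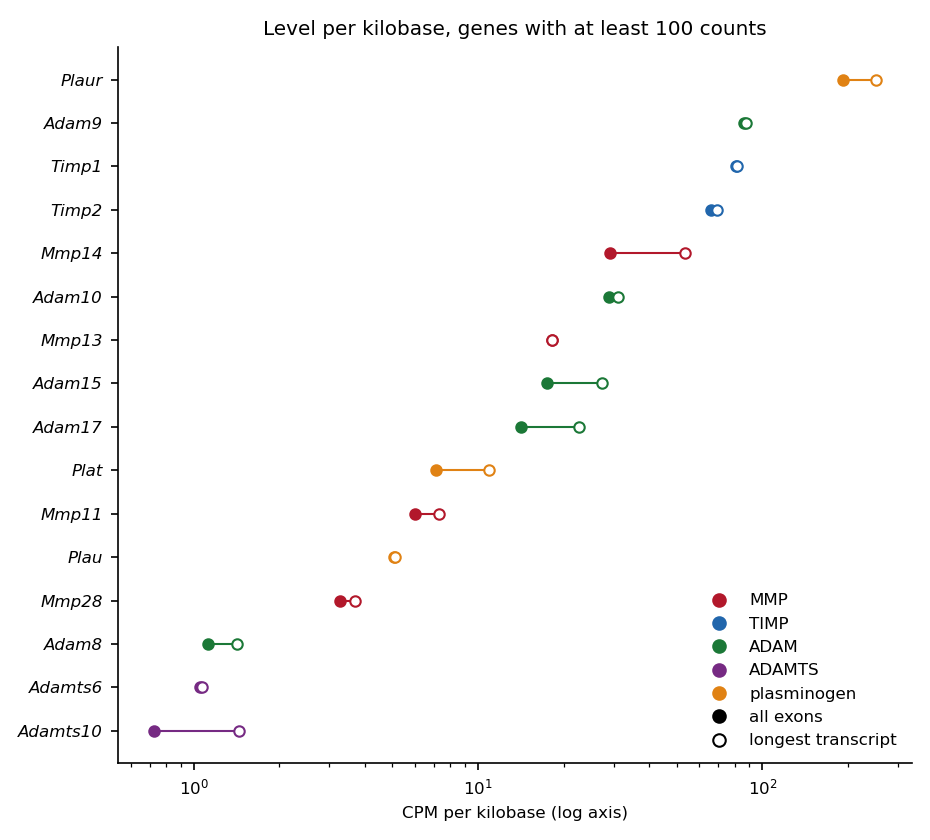
CPM per kilobase, on a log axis, for the 16 genes with at least 100 counts in the CAF-medium library, ordered by the value over all exons (filled points), with the value over the longest transcript as open points. Plaur leads on both lengths, and Mmp14 and Adamts10 show wide gaps between the 2 lengths.

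Markers of other cell types were checked because several genes listed at 0 or 1 count, such as Mmp2, Timp3 and Mmp9, are known from stromal or immune cells. Of 9 ductal epithelial markers, 7 had at least 10 counts (77.8%, against 52.6% of all entries), summing to 4032 CPM. Krt18 stood at 1819 CPM, but Epcam had 2 counts and Cldn4 was listed at 0. Of 12 fibroblast markers, 3 had at least 10 counts (25%, against 52.6%). All 12 summed to 37.0 CPM, of which Pdgfra made up 92.4%. Col1a2, Col3a1, Dcn, Lum, Pdpn, Postn and Thy1 were listed at 0. Of 7 macrophage markers, 2 had at least 10 counts (28.6%, against 52.6%), namely Cd14 with 339 and Cd68 with 121. Ptprc, Adgre1 and Fcgr1 had 1 each and Csf1r and Lyz2 were listed at 0. All 5 neutrophil markers were listed at 0 (36.6% of all entries were), the 4 endothelial markers had 9 counts together and the 4 acinar markers 10.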

How the data were processed

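Per the labels' protocols, RNA was taken with Trizol and 2 ug of it went into each Illumina library. The submitters' processing notes name HISAT2 2.1.0, StringTie and mm10. Not given in the sources used here are the counting method, the strand setting and the gene models, so reads from overlapping exons of 2 genes cannot be told apart. The deposited file holds unscaled whole-number counts for each gene symbol. Of its 2 value columns, the CAF column was matched by the sample title, and 1 value column, whose name matches no label, was not used. The planned ratios between media were therefore not formed.

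CPM was the count divided by the library total of 21269197, times 1000000. Intervals were exact Poisson for levels and exact binomial for ratios, at the 95% level. They were checked only on counts simulated as Poisson, which cannot show their coverage for the counts here. They cover counting error only: at 100 counts the interval runs from 81.4 to 122. Of entries with 10 to 39 counts, 36.9% were multiples of 3, against 33.3% of the whole numbers in that range, so counts may not be plain read numbers and intervals may be too narrow. Lengths, positions and exon overlaps came from GENCODE M21 (GRCm38, the assembly of mm10), to which 99.6% of symbols matched. Transcript windows of 64 bases, every 16 bases, were searched in transcripts of other genes. Upstream sequences came from RefSeq (GRCm38.p6), and in 42 of 53 windows the bases after the start were found in a GENCODE transcript of the gene, with 0 on the other strand.

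Genes with at least 100 counts are given by value, the 12 highest with position, and lower ones by family. Of 10 pairs, 6 gave a ratio, some planned values are not reported here, and none was formed with a gene under 4 counts. The genes, lists and pairs were chosen with earlier results of these data known. Genes outside the families and lists, such as exon neighbours and cluster flanks, and the groups of core genes were chosen after their values were seen. Alternatives were the count minimum, the length, the library total and the reference genes. Computation used Python 3.11.15 with scipy 1.17.1, numpy 2.4.6 and pandas 2.3.3, and plots used matplotlib 3.10.9.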

Additional observations from a re-analysis of the deposited data

How the results depend on the processing

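The 25 genes with at least 10 counts became 16 with a minimum of 100 counts and 36 with a minimum of 1. The number above the median gene was 10, and came to 9 per kilobase, 8 with the median taken over genes with at least 100 counts and 10 over protein-coding genes. The median of the 25 genes moved from 11.99 to 10.1 CPM without Plaur. Ratios depended on length. Timp1 over Timp2 turned from 0.279 in counts to 1.23 per kilobase of all exons and 1.17 per kilobase of the longest transcript. On those lengths Mmp14 over Timp2 came to 0.440 and 0.770 and Plau over Plat to 0.715 and 0.468. Plau over Plaur came to 0.0204 and Mmp14 over Mmp15 to 112 on the longest transcript, and Adam10 over Adam17 to 2.04 on all exons. These follow from the lengths alone. Leaving out the 100 highest genes from the total multiplied every CPM by 1.16, and leaving out genes of the mitochondrial genome by 1.01. No paired analysis was possible because there was 1 library and no test. Other scalings and pseudocounts for ratios between media were not run, since 1 column matched no label.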

Other observations

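Transcripts of substrates that ADAMs and MMPs are known to release were counted as well. Of 22 such genes, 20 had at least 10 counts (90.9%, against 52.6% of all entries) and 16 exceeded the median gene in CPM (72.7%, against 26.3%). The EGF family ligand Areg stood at 247 CPM per kilobase, above Adam17 at 14.1, with Hbegf at 60.9, Ereg at 58.7, Btc at 18.9 and Tgfa at 7.80. Epgn had 3 counts, Egf 77 and Tnf was listed at 0. The surface proteoglycans Sdc4 and Sdc1 stood at 145 and 44.9 CPM per kilobase, the receptor Axl at 119, Cdh1 at 80.9 and the hyaluronan receptor Cd44 at 47.8. Notch2 stood at 31.4 and Notch1 at 4.32 CPM per kilobase.

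Among other proteases and relatives, the lysosomal cathepsins led. Of 16 such genes, 9 had at least 10 counts (56.3%, against 52.6% of all entries) and 3 exceeded the median gene in CPM (18.8%, against 26.3%), shares near or below those of the whole table. Ctsb, Ctsd and Ctsl stood at 74.0, 72.4 and 52.2 CPM per kilobase, with 12.8%, 34.4% and 26.8% of their exonic bases in exons of other genes. Ctsk had 17 counts and Ctss was listed at 0. The ADAMTS-like genes Adamtsl5 and Adamtsl4, which lack a protease domain, stood at 5.82 and 4.24 CPM per kilobase, above all 19 ADAMTS proteases on that scale. Bmp1, which trims procollagens at the other end from the ADAMTS enzymes, stood at 2.55 CPM per kilobase, while its relatives Tll1 and Tll2 had 0 and 2 counts.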
